A study of Mus musculus with 4 samples.

Results

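The 9 Hoxb genes, Hoxb1 to Hoxb9, encode homeodomain transcription factors and lie side by side on mouse chromosome 11. They were found by matching the Ensembl identifiers of the expression table to gene symbols, and all 9 were present among its 28765 genes. Expression was measured by RNA-seq in embryos of the CD-1 mouse strain on E9.5 (day 9.5 of development), when closure of the neural tube is under way. Of 4 libraries, 2 were of brain and 2 of spine, and in each tissue 1 was labelled control and 1 NTD, for neural tube defects. The NTD libraries came from embryos that showed a defect; their parents had been kept for more than 8 weeks on low-folate feed and their mothers received 1.5 mg/kg of MTX (methotrexate, a folate antagonist) by intraperitoneal injection on E7.5. The treatment label of the control libraries reads control, but they carry the same protocol text, so whether control mothers ate the low-folate feed or were injected is not known here. How many embryos went into a library is also not given in the labels. With 1 library per group no difference had a replicate check, and no p-value is given.

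Hox genes give cells of the embryo a position along the head-to-tail axis. Within a cluster, genes are switched on in an order that follows their order on the chromosome: genes of low number start early and reach forward into the hindbrain, and genes of high number start later and stay in the trunk. Retinoic acid made in the trunk mesoderm, Cdx factors in the tail bud and the Polycomb and Trithorax chromatin complexes are known to set these limits, and forebrain and midbrain normally hold no Hox transcripts.

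In mm10 coordinates the cluster spanned 96.8 kb, from 96271457 to 96368256 on chromosome 11, with every member on the plus strand. Hoxb9 (ENSMUSG00000020875) came first, at 96271457 to 96276595, followed by Hoxb8 (ENSMUSG00000056648) at 96281905 to 96285315 and Hoxb7 (ENSMUSG00000038721) at 96286623 to 96290162. Hoxb6 (ENSMUSG00000000690) stood at 96292476 to 96301569, Hoxb5 (ENSMUSG00000038700) at 96303336 to 96306121 and Hoxb4 (ENSMUSG00000038692) at 96318267 to 96321638. Hoxb3 (ENSMUSG00000048763) stood at 96323326 to 96347930, Hoxb2 (ENSMUSG00000075588) at 96350525 to 96354012 and Hoxb1 (ENSMUSG00000018973) last, at 96365752 to 96368256. Members are described here from Hoxb1 to Hoxb9, the order in which the cluster opens. Exon bases of 3 members overlapped those of an antisense gene on the minus strand: 52.9% of Hoxb3 and 27.3% of Hoxb2 with Hoxb3os, and 3.59% of Hoxb5 with Hoxb5os. No source used here says whether counting used strand, so reads on the shared bases cannot be assigned to a member or to its antisense partner. The other 6 members shared no exon base with another gene.

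Values are FPKM, read densities scaled to gene length and to library total, so that levels of different genes can be set side by side. Library totals recovered from the table lay between 16272101 and 16911677 reads, which makes 1 FPKM worth 16.3 to 16.9 reads per kilobase of exon. A fold below divides the read shares of 2 libraries, and the range after it is its 95% interval from an exact (Clopper-Pearson) binomial calculation, which covers counting error only. The labelled tissues were checked in the controls: 11 of 11 compared forebrain and midbrain markers were at least 2-fold higher in brain, and all 8 heart markers and 7 of 10 somite markers were at least 2-fold higher in spine. The spine libraries thus held tissue other than spinal cord, with 695.4 FPKM summed over heart markers and 119.2 over endoderm and yolk sac markers in control spine.

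In control spine every Hoxb gene was present, between 2.82 and 47.5 FPKM, and together they took 362.5 RPM (reads scaled to the library total). Hoxb9, the member that acts farthest toward the tail and patterns the thoracic skeleton, was highest, at 47.5 FPKM. Hoxb7, Hoxb8, Hoxb4 and Hoxb6 formed a second level between 17.9 and 20.3 FPKM, within which neighbours in the order did not differ beyond their counting intervals. Hoxb1, Hoxb3, Hoxb5 and Hoxb2 followed at 9.69, 7.08, 5.01 and 2.82 FPKM, each step larger than counting error. Along the cluster from Hoxb1 to Hoxb9 levels in control spine went up at 5 of 8 steps (Spearman rho 0.78 over the 9 genes of this library).

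Control brain showed the opposite order (rho −0.81), with 17.6 RPM for the Hoxb genes in all. Hoxb1, which gives its identity to the hindbrain segment that produces the facial nerve, was highest at 3.23 FPKM. Hoxb2, Hoxb4 and Hoxb3 followed at 1.12, 0.968 and 0.737 FPKM, and neighbours among these 3 did not differ beyond counting error. The 5 members from Hoxb5 to Hoxb9 had 4, 1, 0, 0 and 4 reads. The 0 reads of Hoxb7 and Hoxb8 allow up to 0.115 and 0.0673 FPKM, the levels that 3 reads would give. In bulk tissue fewer cells of a type and less RNA per cell cannot be told apart, here or in the comparisons that follow.

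**Figure D1:**
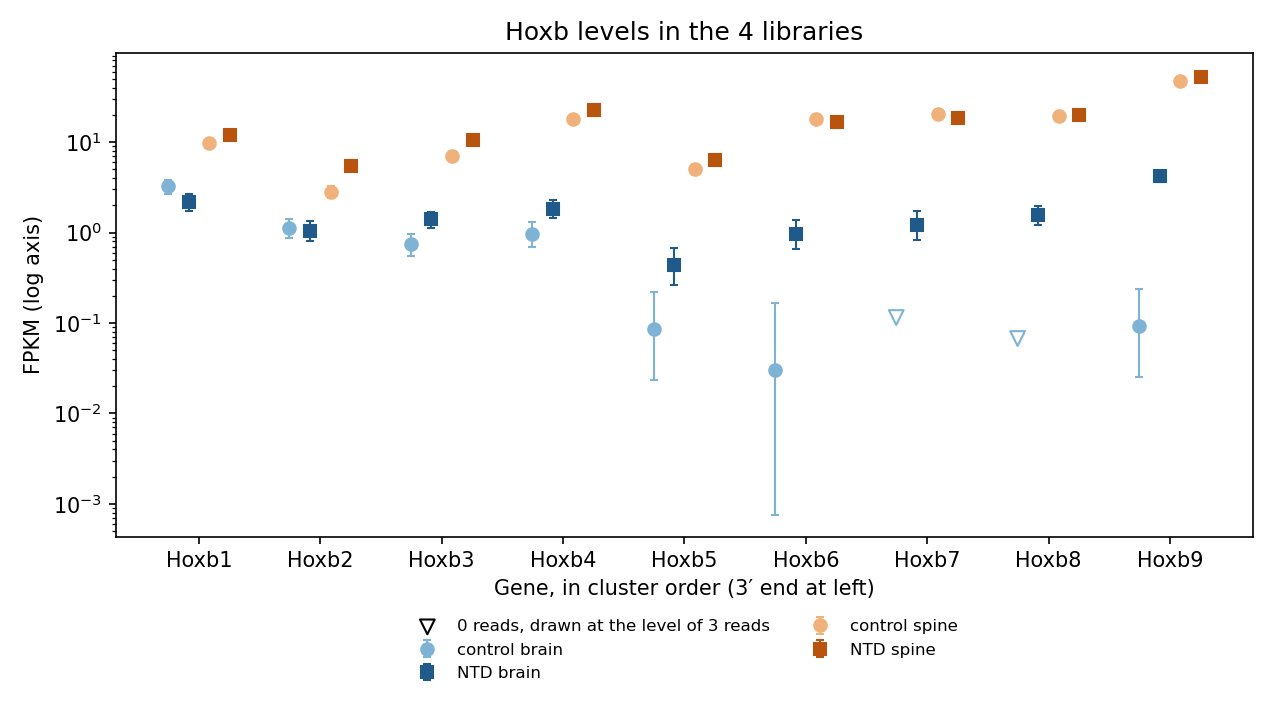
FPKM (log axis) of the 9 Hoxb genes in cluster order, 1 point per library with bars for the 95% counting interval; open triangles stand for 0 reads and are drawn at the level 3 reads would give. Both spine points lie above both brain points at every gene, and at Hoxb7 and Hoxb8, where control brain had 0 reads, NTD brain stands at 1.22 and 1.54 FPKM.

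NTD brain held more RNA of the trunk members than control brain: 39.1 RPM over the cluster against 17.6, with Hoxb7, Hoxb8 and Hoxb9 at least 2-fold higher on the log2(FPKM + 1) scale. That made 3 of 9 members, where 0.804% of the 12940 genes compared were at least 2-fold higher; no member, against 0.781% of genes, was as much lower. Counting intervals lay above equality for 7 members and below it for 1, beside 16.1% and 25.7% of genes. The median log2 ratio of the members was 0.52, the value of Hoxb4, and that of all genes −0.03. Members with 0 reads in control brain lie above this median at their bound too. The lower counting bound of the log2 ratio was 0.88 for Hoxb7, which is under 2-fold. It was 1.19 for Hoxb8 and 2.03 for Hoxb9.

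Among the trunk members, Hoxb9 stood at 0.0919 FPKM in control and 4.18 in NTD brain, and at 47.5 in control and 52.9 in NTD spine. On 4 and 177 reads, NTD brain was 45.4-fold above control brain (17.4 to 168.6), and Hoxb9 became the highest member of the NTD brain library. Hoxb8, known for roles in the limb field and in microglia, had 0, 1.54, 19.5 and 20.04 FPKM in the same order of libraries. Its 67 reads in NTD brain against 0 made it at least 22.9-fold higher, computed against a floor of 3 reads in control brain.

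Hoxb7, a factor of the trunk mesoderm and the developing kidney duct, had 0 and 1.22 FPKM in control and NTD brain and 20.3 and 18.5 in control and NTD spine. With 31 reads in NTD brain it was at least 10.6-fold higher there than in control brain. Hoxb6, a marker of lateral plate mesoderm, had 0.0301, 0.958, 17.9 and 16.8 FPKM. On a single control read the ratio of NTD to control brain was 31.8 (5.30 to 1297), while its log2 ratio of 0.93 stayed under 2-fold because the scale adds 1 FPKM to each value. For all 4 trunk members the brain libraries lay far apart, and both lay below both spine libraries.

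The middle members showed smaller ratios in the brain. Hoxb5, which acts in the neural crest of the gut and in the forelimb position, had 0.0849 and 0.436 FPKM in control and NTD brain and 5.01 and 6.38 in control and NTD spine. NTD brain was 5.13-fold higher on 20 against 4 reads (1.72 to 20.7). Hoxb4, expressed from the posterior hindbrain backward, had 0.968, 1.82, 17.9 and 22.5 FPKM and was 1.88-fold higher in NTD brain (1.28 to 2.81). Hoxb3, which helps pattern the posterior hindbrain, had 0.737, 1.40, 7.08 and 10.6 FPKM and was 1.90-fold higher (1.35 to 2.70). None of the 3 reached 2-fold on the log2(FPKM + 1) scale, where their ratios were 0.40, 0.52 and 0.47.

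Hoxb1 and Hoxb2 were not higher in NTD brain. Hoxb1 had 3.23 FPKM in control and 2.17 in NTD brain, and 9.69 in control and 11.9 in NTD spine. It was the 1 member whose interval lay below equality in the brain, with 83 reads against 127, a 1.49-fold lower level (1.12 to 1.99). Hoxb2, a target of Hoxb1 in the hindbrain, had 1.12, 1.04, 2.82 and 5.39 FPKM. Its brain libraries differed by less than counting error, at 1.07-fold lower (0.744 to 1.55), and its log2 ratio of −0.05 became 0.05 once the median of genes with like GC content was taken off.

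Summed reads of Hoxb1 to Hoxb5 were 1.19-fold in NTD against control brain (1.01 to 1.39), a sum that joins the lower Hoxb1 with the higher Hoxb3, Hoxb4 and Hoxb5. Hoxb6 to Hoxb9 together were 62.8-fold higher (26.6 to 195), with 306 reads against 5. Along the cluster the log2 ratio climbed at 7 of 8 steps from Hoxb1 to Hoxb9, with a rho of 0.95 over the 9 genes, which share their libraries and are not replicates. The level order of NTD brain, with a rho of 0.10, no longer followed the cluster: Hoxb9 was above Hoxb1, and the members from Hoxb1 down to Hoxb6 in that order differed from their neighbours by less than counting error.

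Markers of heart, and some of those of somites, tail bud and lateral plate, were higher in NTD brain together with the trunk members. Heart markers were at least 2-fold higher in NTD brain in 6 of 8, with a median log2 ratio of 1.41 and a sum of 196.9 FPKM against 47.2, and Nppa was at 0 in control brain. Somite markers summed to 31.9 against 22.0 FPKM, with 1 of 10 at least 2-fold higher: Meox1, a factor of early somites, at 11.1 against 3.42 FPKM, which makes up most of the difference in the sum. Of the somite markers, 7 were higher and 3 lower, with 4 counting intervals above equality and 1 below. Tail bud markers summed to 16.9 against 17.5 FPKM, sums held mostly by Wnt3a and Fgf8, the 2 that were lower. The other 6 of 8 were higher, with 4 intervals above equality and a list median log2 ratio of 0.35. Among them T, a factor of the primitive streak and tail bud, had 1.10 against 0.307 FPKM, and Cdx4 and Msgn1 were at 0 in control brain. Lateral plate and limb markers summed to 21.1 against 20.5 FPKM, with 6 of 8 higher and a median log2 ratio of 0.17. Endoderm and yolk sac markers summed to 4.68 against 6.73 FPKM. These sums were held mostly by Foxa2, at 3.33 against 5.09, and Sox17, at 1.17 against 1.55. Afp, Apoa2 and Ttr were at 0 in control brain and Apoa1 and Apoa2 at 0 in NTD brain. Afp had 7 reads and Ttr 1 in NTD brain, and Apoa1 had 2 in control brain. The part of such tissue in the higher Hoxb levels of NTD brain was not tested.

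Markers of the nervous system were mostly lower or near level. Forebrain and midbrain markers summed to 100.1 FPKM in NTD brain against 112.5 in control brain, with 0 of 11 at least 2-fold different. Early neuron markers summed to 96.1 against 148.5, and all 8 were lower in NTD brain. Neural progenitor markers summed to 180.1 against 216.4, and all 6 were lower, each with an interval below equality. Neural crest markers summed to 21.6 against 20.8, with 2 of 3 compared higher and 1 lower. Hindbrain markers summed to 14.4 against 18.2, and 1 of 6 was at least 2-fold lower, Atoh1, the factor of the rhombic lip, at 0.544 against 2.54 FPKM. Of these 6, 3 were lower with intervals below equality and 3 were higher, none with an interval above it. Hoxb1 was lower in the same library, and the part of hindbrain tissue in its level was not tested.

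In the spine no member was at least 2-fold higher or lower in NTD than in control, beside 0.649% and 0.68% of genes. The members together took 417.4 RPM in NTD spine against 362.5. Counting intervals lay above equality for 6 of 9 members and below it for none, where 17.2% of genes lay above and 26.6% below. The median log2 ratio was 0.27, and that of all genes −0.04.

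The 5 members from Hoxb1 to Hoxb5 made up most of that count. Hoxb2 was 1.91-fold higher in NTD spine (1.57 to 2.33), at 5.39 against 2.82 FPKM, and Hoxb3 was 1.49-fold higher (1.33 to 1.68). These are the members that share most exon bases with Hoxb3os, which was itself 1.51-fold higher (1.25 to 1.82), so the transcript that carried the extra reads cannot be named. Hoxb1, Hoxb4 and Hoxb5, of which Hoxb1 and Hoxb4 overlap no other gene, were 1.23-fold (1.07 to 1.41), 1.25-fold (1.14 to 1.38) and 1.27-fold higher (1.07 to 1.52). The 5 together were 1.36-fold higher (1.29 to 1.44), on 2770 against 1992 reads.

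The trunk members were close to equal in the spine libraries. Hoxb9 was 1.11-fold higher in NTD spine (1.05 to 1.18), with 2262 against 1989 reads. Hoxb8 was 1.03-fold (0.934 to 1.13), Hoxb7 0.913-fold (0.804 to 1.04) and Hoxb6 0.937-fold (0.832 to 1.06), and each of these intervals held equality. Hoxb6 to Hoxb9 together were 1.04-fold (0.999 to 1.09), an interval that leaves room for at most a 1.09-fold higher sum by counting error alone. The log2 ratio of Hoxb6, −0.09, turned to 0.04 against genes of like GC content. Along the cluster the spine ratio had a rho of −0.68, the opposite sign to the brain.

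In the spine, tail bud markers summed to 59.2 FPKM in NTD against 38.0 in control, with 1 of 8 at least 2-fold higher: Msgn1, a factor of presomitic mesoderm, at 9.43 against 3.31 FPKM. Somite markers summed to 159.0 against 136.6 FPKM. Lower in NTD spine were heart markers, at 467.2 against 695.4 FPKM, endoderm and yolk sac markers, at 40.2 against 119.2, and early neuron markers, at 45.5 against 85.5. Neural progenitor markers, at 114.2 against 135.0 FPKM, were lower in 6 of 6, with 4 intervals below equality. Primitive erythroid markers, at 3304 against 6277 FPKM, were lower in 5 of 5, and forebrain and midbrain markers, at 7.11 against 15.7, in 11 of 11, with 2 at least 2-fold lower. Hindbrain markers summed to 27.2 against 24.4 FPKM. The part of these shifts in tissue in the spine levels of Hoxb1 to Hoxb5 was not tested.

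**Figure D2:**
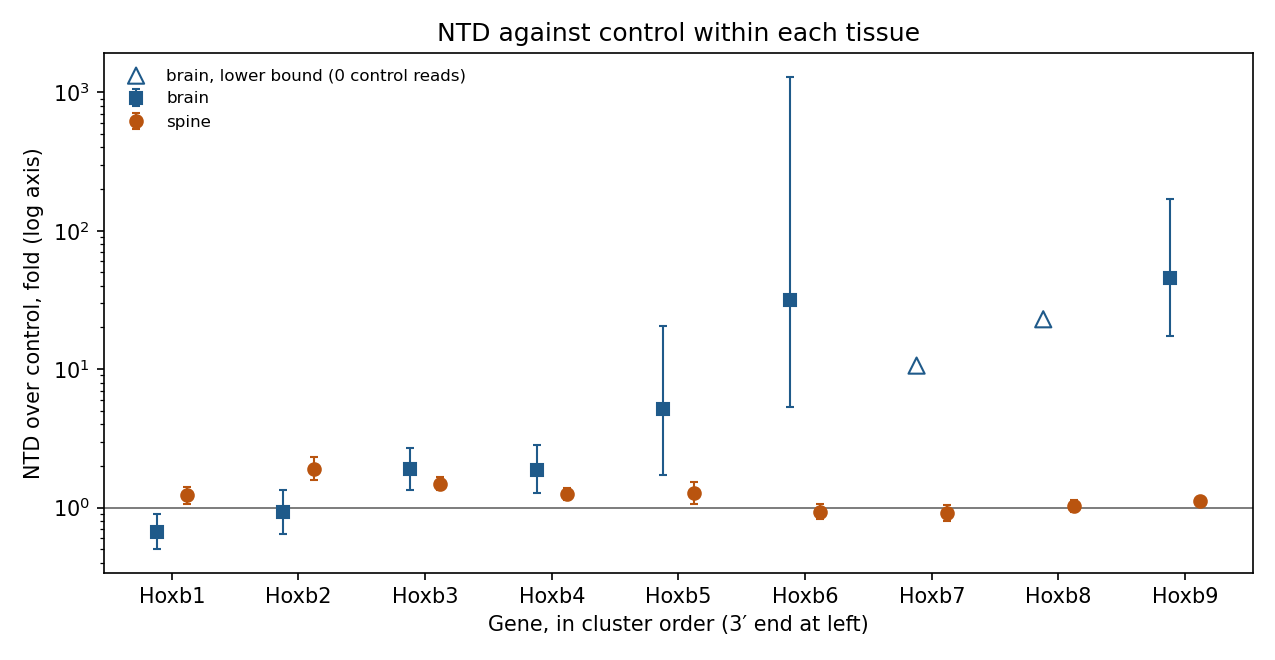
Fold of NTD over control in recovered reads (log axis) for each Hoxb gene in cluster order, squares for brain and circles for spine, with 95% counting intervals; open triangles at Hoxb7 and Hoxb8 are lower bounds, since control brain had 0 reads. Brain folds go from 0.671 at Hoxb1 to 45.4 at Hoxb9, while spine folds stay between 0.913 and 1.91.

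The brain and spine ratios of each gene rest on separate pairs of libraries. Their difference on the log2(FPKM + 1) scale, brain minus spine, was −0.69 for Hoxb1 and −0.79 for Hoxb2. It was −0.05 for Hoxb3, 0.21 for Hoxb4 and 0.11 for Hoxb5. For Hoxb5 the added 1 FPKM hides a gap in reads, where its folds were 5.13 (1.72 to 20.7) in brain and 1.27 (1.07 to 1.52) in spine. From Hoxb6 on it was 1.02, 1.28, 1.31 and 2.09. Without replicates these differences between tissues could not be tested.

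Setting brain against spine within each condition shows where the Hoxb RNA of the brain libraries sat relative to the trunk. In controls, 8 of 9 members were at least 2-fold lower in brain on the log2(FPKM + 1) scale, beside 2.38% of genes. The exception was Hoxb2, at −0.85 on that scale because 1 FPKM is added to each value. In reads Hoxb2 was 2.52-fold lower in brain (1.88 to 3.41). No member was at least 2-fold higher, beside 0.981% of genes. The median log2 ratio was −3.27 against 0.01 for all genes. Control brain held 39.7% of the control spine level of Hoxb2 (29.3 to 53.2) and 33.4% of that of Hoxb1 (27.1 to 41.0). The share was 10.4% for Hoxb3, 5.40% for Hoxb4 and 1.70% for Hoxb5. It was 0.168% for Hoxb6 (0.00424 to 0.939) and 0.194% for Hoxb9 (0.0527 to 0.496), and the 0 reads of Hoxb7 and Hoxb8 allow at most 0.567% and 0.345%. In control the brain share of the spine level was thus smaller toward the Hoxb9 end of the cluster.

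In NTD brain the shares were more even along the cluster. All 9 members were at least 2-fold lower in NTD brain than in NTD spine, beside 2.13% of genes lower and 1.02% higher, with a median log2 ratio of −3.05 against 0.01. Hoxb1 and Hoxb2 stood at 18.3% (14.3 to 23.1) and 19.4% (14.5 to 25.6) of NTD spine and Hoxb3 at 13.2% (10.6 to 16.4). From Hoxb4 to Hoxb9 the shares were 8.09%, 6.84%, 5.70%, 6.59%, 7.70% and 7.89%, and 7.503% for the 6 summed (6.76 to 8.30). The same sum in control brain was 1.005% of control spine (0.747 to 1.32). Set against control spine in place of NTD spine, the NTD brain sum was 8.15% (7.35 to 9.03). Summed heart markers stood at 6.79% of the spine level in control brain and 42.1% in NTD brain, and summed somite markers at 16.1% and 20.05%. The spine sum of heart markers was itself lower in NTD, at 467.2 FPKM against 695.4 in control, which raises their NTD share. These comparisons share libraries with those of NTD against control and are not separate evidence.

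**Figure D3:**
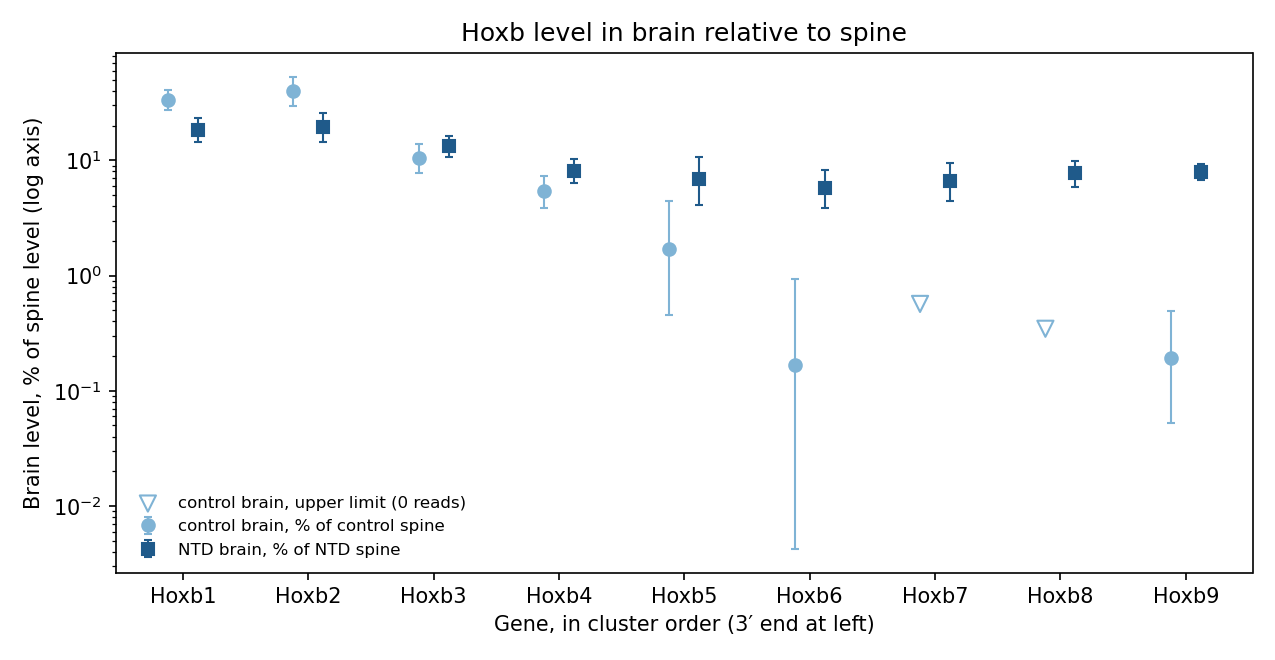
Brain level as a percent of the spine level of the same condition (log axis) for each Hoxb gene in cluster order, with 95% counting intervals; for Hoxb7 and Hoxb8 in control the marker is the limit that 0 reads allow. Control values descend from 39.7% at Hoxb2 to below 1% from Hoxb6 on, while NTD values level off between 5.70% and 8.09% from Hoxb4 to Hoxb9.

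Other transcripts of the cluster were compared in the same way. Hoxb5os, which runs on the minus strand across Hoxb5 and Hoxb6 from 96291024 to 96306910, had 0 FPKM in control and 1.48 in NTD brain, and 27.8 in control and 30.0 in NTD spine. Its 17 reads made it at least 5.82-fold higher in NTD brain. The noncoding RNA Gm53, upstream of Hoxb9, was 3.70-fold higher in NTD brain (1.32 to 12.7) but 0.830-fold in NTD spine (0.705 to 0.977), where Hoxb9 was slightly higher. Hoxb3os was 0.727-fold in NTD brain (0.487 to 1.08), where Hoxb3 was higher. The antisense RNA Gm11536 was 2.74-fold higher in that library (1.02 to 8.54) and 1.73-fold higher in NTD spine (1.33 to 2.27). Gm53 and Gm11536 were taken up after their values were seen, as annotated genes within or beside the cluster. Hoxb13, the far member on the other side of a long gap, had 2 reads, both in control brain.

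The cluster and its flank also hold the genes of 2 microRNAs, small RNAs that bind mRNAs through the seed, bases 2 to 8 of the mature strand. Mir196a-1 lies upstream of Hoxb9, at 96265164 to 96265265, and Mir10a just upstream of Hoxb4, at 96317165 to 96317274. Their main mature strands are given from RefSeq (GRCm38.p6), with the seed in capitals, because miR-196a is known to cut the Hoxb8 mRNA.
miR-196a-5p: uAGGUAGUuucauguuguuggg
miR-10a-5p: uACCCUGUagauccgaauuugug
The Hoxb8 transcript of GENCODE carries in its 3′ UTR, at 96284888 to 96284909 on the plus strand, a site that pairs with 21 of 22 bases of miR-196a-5p, printed here with the stretch facing the seed in capitals.
Hoxb8 site: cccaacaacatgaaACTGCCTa
The remaining pair is a G of the site opposite a U of the microRNA, inside the seed. No other member came closer than 8 mismatches to full pairing with miR-196a-5p, and none closer than 8 with miR-10a-5p. The search scored pairing over the full length without gaps. Sites that match the seed alone were not searched for, so other members may hold such sites. Reads over the hairpin genes, which long-RNA libraries catch poorly, were 1, 0, 23 and 12 for Mir196a-1 and 2, 1, 13 and 19 for Mir10a, in control and NTD brain and then in control and NTD spine. Hoxb8, the member with this near-full site, stood at 1.54 FPKM in NTD brain beside 1.22 for Hoxb7, and at 19.5 beside 20.3 in control spine. Levels of different genes do not show what the microRNA does, and its part in the Hoxb8 level was not tested.

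Promoters are shown for the members found in the RefSeq promoter table, which were 3 of 9. They are Hoxb1, the middle member Hoxb4 and the trunk member Hoxb8, whose brain ratios differed. Each is the 250 bases before the RefSeq start on the plus strand of GRCm38.p6, with matches of 3 motifs in capitals. The motifs, searched on both strands, were TTTAT (the core bound by Cdx factors), TGATNNAT (a joint PBX and HOX core) and AGGTCA (the core bound by retinoic acid receptors).
Hoxb1, chr11:96365508-96365757: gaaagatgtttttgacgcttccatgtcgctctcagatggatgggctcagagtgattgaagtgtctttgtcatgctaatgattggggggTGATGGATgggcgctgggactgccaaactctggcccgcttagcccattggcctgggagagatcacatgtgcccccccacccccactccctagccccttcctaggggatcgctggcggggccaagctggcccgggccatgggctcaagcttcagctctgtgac
Hoxb4, chr11:96318017-96318266: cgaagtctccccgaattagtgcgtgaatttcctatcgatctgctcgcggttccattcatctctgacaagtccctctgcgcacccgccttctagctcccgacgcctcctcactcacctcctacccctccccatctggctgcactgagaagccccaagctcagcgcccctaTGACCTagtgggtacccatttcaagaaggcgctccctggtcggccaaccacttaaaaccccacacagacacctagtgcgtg
Hoxb8, chr11:96281655-96281904: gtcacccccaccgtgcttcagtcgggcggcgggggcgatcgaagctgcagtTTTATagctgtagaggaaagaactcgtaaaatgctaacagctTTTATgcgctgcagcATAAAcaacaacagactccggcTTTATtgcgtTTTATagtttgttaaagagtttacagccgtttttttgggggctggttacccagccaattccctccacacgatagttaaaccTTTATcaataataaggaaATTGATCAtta
The Hoxb8 window held 6 matches of TTTAT, 5 of them on the strand of the gene, and the windows of Hoxb1 and Hoxb4 held none. TTTAT occurred in 37.3% of 32851 promoter windows of the same length, and 0.393% had as many matches. The Hoxb8 window was also poorer in G and C, at 44.4% against 59.2% in Hoxb1, 58% in Hoxb4 and a median of 52.4%. TGATNNAT was found at 1 place each in Hoxb1 and Hoxb8 and in 7.68% of all windows. AGGTCA was found at 1 place in Hoxb4, on the other strand, and in 14.02% of all windows. These are matches of letters, and binding was not measured.

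The Hoxa, Hoxc and Hoxd clusters hold paralogues, genes that share a number with a Hoxb gene by descent from 1 ancestral cluster. In NTD against control brain, 1 of their 25 compared genes was at least 2-fold higher on the log2(FPKM + 1) scale, Hoxc6, at 1.39 against 0.0491 FPKM. That scale understates rises from low levels. In reads Hoxc6 was 28.2-fold higher (7.45 to 239), and Hoxa9, not in that count, 43.1-fold higher (7.33 to 1743). Median log2 ratios were 0.55 for 10 Hoxa genes, 0.51 for 7 Hoxc genes and 0.30 for 8 Hoxd genes, beside 0.52 for the 9 Hoxb genes. Counting intervals lay above equality for 7 of 10, 6 of 7 and 4 of 8 of them, and below it for none.

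Hoxa2, the paralogue of Hoxb2 that patterns the second pharyngeal arch, was picked after its values were seen, to be set beside Hoxb2. NTD brain held 1.11 times its control level (0.852 to 1.44), and NTD spine 1.18 times, beside 1.91-fold for Hoxb2.

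In groups 6 to 9 every compared gene of the 3 other clusters was higher in NTD brain, as were Hoxb6 to Hoxb9. Summed over these groups, Hoxa genes were at 0.0783 FPKM in control brain and 2.05 in NTD brain, Hoxc genes at 0.0700 and 2.58, Hoxd genes at 0 and 0.692, and Hoxb genes at 0.122 and 7.90. Hoxb thus held the highest summed level of these groups in NTD brain, over 4 genes against 3 Hoxa, 3 Hoxc and 2 Hoxd genes. Its sum was also the highest in control brain, and in control spine, at 105.2 FPKM against 29.5, 37.8 and 20.9. As a share of the NTD spine sum, NTD brain held 7.29% for Hoxb, 5.40% for Hoxa, 6.60% for Hoxc and 3.66% for Hoxd. In the spine, medians of groups 1 to 5 were 0.22 for Hoxa, 0.07 for Hoxc, 0.17 for Hoxd and 0.31 for Hoxb, and medians of groups 6 to 9 were 0.22, 0.11, −0.18 and −0.03.

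**Figure D4:**
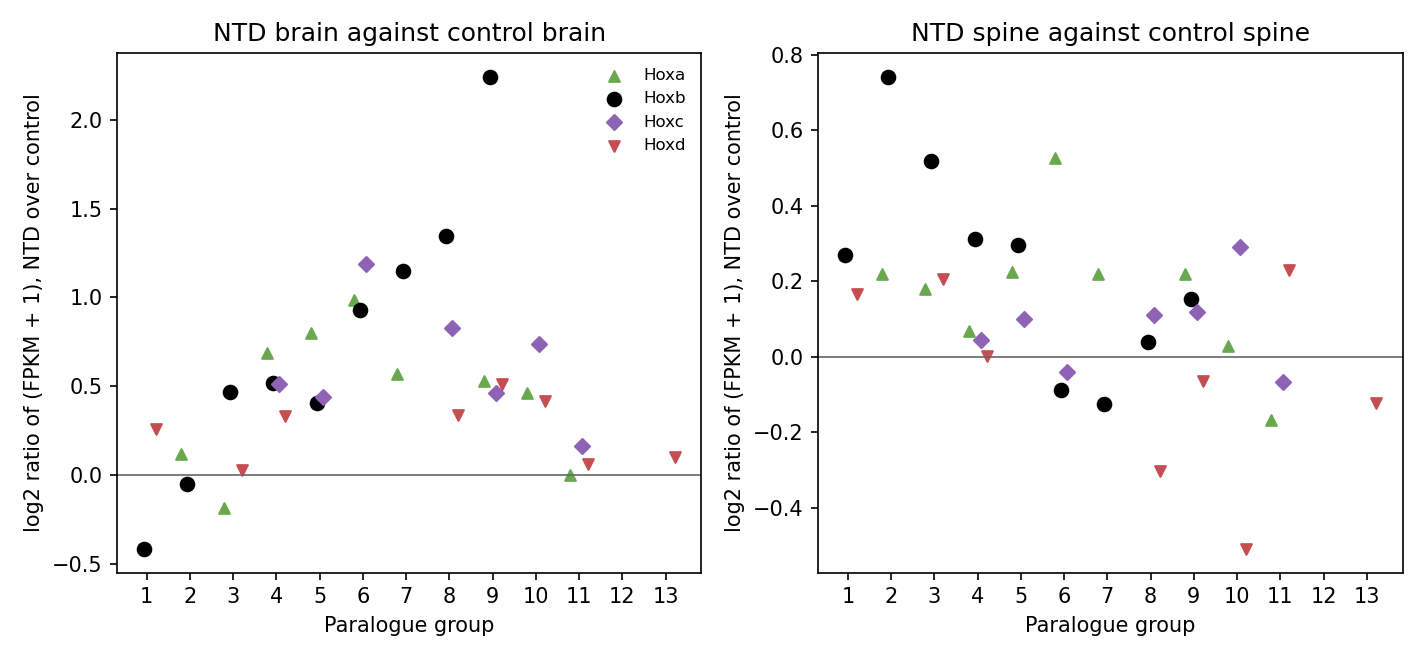
Ratio of NTD to control (log2 of FPKM + 1) by paralogue group for compared genes of the 4 Hox clusters that are reported here, with brain and spine in separate panels. In the brain, Hoxb9 at 2.24 is the highest point and Hoxb1 at −0.42 the lowest; in the spine Hoxb2 at 0.74 is the highest.

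Genes that control or assist Hox proteins were counted in lists chosen with earlier results of these data known. Among Hox cofactors, the Pbx, Meis and Pknox proteins that bind DNA together with Hox proteins, 0 of 9 were at least 2-fold higher or lower in either tissue, with median log2 ratios of −0.02 in brain and 0.00 in spine. Of direct upstream regulators, 0 of 10 compared were at least 2-fold different in either tissue. In NTD brain 7 of the 10 were lower, 4 with intervals below equality, among them Wnt3a, at 4.05 against 6.68 FPKM, and Gdf11, a signal that times the onset of trunk and tail Hox genes, at 10.3 against 14.8. Intervals lay above equality for 2. Cdx2, which activates trunk Hox genes in the tail bud, was 6.50-fold higher in reads in NTD brain (1.91 to 34.3), at 0.510 against 0.0785 FPKM. Cdx4, its relative, had 0.309 against 0 FPKM there. In NTD spine Cdx2 was 1.86-fold (1.56 to 2.23) and Cdx4 1.97-fold higher (1.63 to 2.39). Cdx2 and Cdx4 were thus higher in NTD in both tissues, and in both brain libraries they stayed well under their spine levels. Their relative Cdx1, taken up after its values were seen, did not share this rise. It had 0.555 FPKM in NTD against 0.574 in control brain, and 3.51 in NTD against 3.44 in control spine.

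Of the genes that supply or remove retinoic acid, 1 of 11 compared was at least 2-fold higher in NTD brain and none lower. That gene was Aldh1a2, the enzyme that makes retinoic acid in trunk mesoderm, with 0.522 FPKM in control and 4.34 in NTD brain, and 34.0 in control and 46.8 in NTD spine. NTD exceeded control 8.32-fold in the brain (5.21 to 13.98) and 1.38-fold in the spine (1.28 to 1.48). In the spine 0 of 11 were at least 2-fold different. Of Polycomb and Trithorax genes, 0 of 21 compared were at least 2-fold different in the brain, and 1 of 21 in the spine, Men1, a partner of Trithorax methyltransferases, 2.67-fold higher (2.13 to 3.37).

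For 3 members the protein-coding genes outside the cluster with the most similar course over the 4 libraries were found among 11190 candidates, by the distance between log2(FPKM + 1) values after each gene's mean was taken off. Nearest to Hoxb4 were Hoxa9 (distance 0.07), Hoxa7 (0.11), Tcf15 (0.16), Hoxc9 (0.23) and Hoxc5 (0.24). Nearest to Hoxb1 were Hoxa3 (0.28), Tshz1 (0.32), Hoxd11 (0.35), Cdx1 (0.37) and Bnc1 (0.39). Nearest to Hoxb9 were Aldh1a2 (0.69), Hoxc6 (1.14), Hoxa5 (1.20), Gm14226 (1.20) and Meox1 (1.28). The distance is not scaled to the range of a gene, and Hoxb9 had the widest of the 3, from 0.0919 to 52.9 FPKM. Its larger distances are therefore not comparable with those of Hoxb1 and Hoxb4. The added 1 FPKM also evens out low brain levels. In reads NTD brain exceeded control brain 43.1-fold for Hoxa9 (7.33 to 1743) but 1.88-fold for Hoxb4 (1.28 to 2.81). Hoxd11, listed with Hoxb1, had 0 reads in control and 3 in NTD brain, where Hoxb1 had 127 and 83. A small distance therefore need not mean a like change in the brain. With 4 libraries such a likeness is a description only.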

How the data were processed

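RNA-seq of brain and spine from E9.5 mouse embryos was deposited as 1 table of FPKM for 28765 genes and 4 libraries, 1 per group; groups followed the sample titles. The FPKM values were made by the authors from reads aligned with HISAT2 2.0.1 to mm10, per the submitters' processing notes. The counting program, annotation, strand setting and filters were not given in the sources used here. Identifiers were matched to GENCODE M21 (28698 matched, 67 did not). FPKM times the union exon length gave whole reads within 0.01 reads for 28298 genes (98.6%) in all libraries, among them all 9 Hoxb genes. Levels were compared as log2 ratios of (FPKM + 1) over the 12940 genes whose mean reached 1 FPKM, a filter that all 9 members passed, and genes at or beyond 2-fold were counted. Adding 1 FPKM understates the change of low genes. A fold divides the shares of recovered reads of 2 libraries and has an exact 95% binomial interval; a library at 0 was set to a floor of 3 reads. Reads without molecular identifiers are not independent molecules, so intervals and floors cover counting error only. No count test was run, since no group has a replicate. All members were named. Of each gene list those at or beyond 2-fold and up to 4 others could be named, besides genes marked as taken up after their values were seen. Members, lists and tests were chosen with earlier results of these data known. The steps were tested on simulated data. Alternatives were pseudocounts of 0.1 and 5 FPKM, no filter and a filter of 5 FPKM, rescaled libraries, thresholds of 1.5-fold and 4-fold, members without shared exons, protein-coding genes only and, chosen after seeing the data, an adjustment for GC content and calls by counting interval. Promoter and microRNA sequences came from RefSeq tables of GRCm38.p6. Of the paralogues, 1 gene enters the counts and medians but is not reported here. Python 3.11.15 was used with numpy 2.4.6, pandas 2.3.3, scipy 1.17.1 and matplotlib 3.10.9.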

Additional observations from a re-analysis of the deposited data

Results flagged for a closer look

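Hoxb1 went in opposite directions in the brain and the spine. NTD brain held 0.671 times the control level, with an interval below equality, while NTD spine held 1.23 times the control level, with an interval above it. With 1 library per group neither direction had a replicate check, and the difference between the tissues was not tested. Hoxb1 overlaps no other annotated exon, and its ratios kept these directions under each pseudocount, rescaling and GC adjustment tried.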

How the results depend on the processing

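No paired analysis was possible because each group has 1 library, and for the same reason no library could be left out. No member past 2-fold changed direction under any alternative run; of the others, Hoxb2 in the brain turned from −0.05 to 0.05 and Hoxb6 in the spine from −0.09 to 0.04 under the GC adjustment. Members at least 2-fold higher in NTD than in control brain numbered 3, but 5 with a pseudocount of 0.1, 0 with 5, 1 at 4-fold and 7 by counting interval, by which 1 was lower in place of 0. In the spine 0 became 1 at 1.5-fold and 6 by counting interval. With pseudocounts of 0.1 and 5 the members' median moved from 0.52 to 1.54 and 0.19 in NTD against control brain, from −3.27 to −4.79 and −1.94 in control brain against spine, and from −3.05 to −3.60 and −1.87 in NTD brain against spine, since these constants weigh low levels differently. The share of all genes past 2-fold, higher and lower, with protein-coding genes only was 0.313% and 0.0804% in NTD against control brain, 0.0982% and 0.277% in the spine, 0.714% and 2.09% between the control tissues and 0.777% and 1.71% between the NTD tissues. Without the filter it was 0.570% and 0.594% in NTD against control brain, 0.518% lower in the spine, 0.706% and 1.48% between the control tissues and 0.667% and 1.24% between the NTD tissues. Rescaling moved 2 of 36 member ratios beyond their counting intervals, by median ratio or by sum, the GC adjustment 5 of 36, a pseudocount of 0.1 moved 24 of 36 and one of 5 moved 27 of 36. Depth limits Hoxb5 to Hoxb9 in control brain, at 0 to 4 reads each.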
